A study of Mus musculus with 5 samples.

Results

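The large rodent miRNA cluster inside the Sfmbt2 gene was represented on this panel by 6 of its 217 miRNA assays: miR-467a, miR-467b, miR-467c, miR-467d, miR-467e and miR-669a. They were taken by assay name as the miR-467 and miR-669 assays of the files, a rule that uses no measured value. Their levels were followed in tibialis anterior muscle of male C57BL/6J mice aged 4 to 6 months, before injury and during regeneration. Damage was produced by 100 µl of 2.5 µM cardiotoxin, a snake venom toxin that destroys myofibres, given into the anterior compartment of both hind limbs. The arms were uninjected muscle (baseline) and muscle taken 1, 3, 4, 7 and 21 days after injection, with 4 mice per time point according to the labels. The arms share the strain, sex, age range and muscle, and the labels name no transgene or further treatment. The RNA came from homogenised muscle, in which myofibres, satellite cells, leukocytes and stroma are mixed, and in such bulk tissue more cells of a type cannot be told apart from more RNA per cell.

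Sfmbt2 encodes a polycomb-group protein and is an imprinted mouse gene, expressed from the paternal allele in placenta and early embryo. One of its introns holds a long run of related miRNA hairpins that expanded in rodents and is absent from the human gene. Of the members, miR-669a has been reported in mouse cardiac progenitors to act on the mRNA of MyoD, the transcription factor that commits cells to the myogenic lineage. In mouse macrophages miR-467b has been reported to act on the mRNA of lipoprotein lipase, and the miR-467 family has been linked in mouse to thrombospondin-1, an inhibitor of vessel growth.

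In the RefSeq annotation of mouse assembly GRCm38.p6, 72 miRNA genes lay within Sfmbt2 on chromosome 2, of which 14 were named Mir467, 29 Mir669, 23 Mir466 and 5 Mir297. The mature miRNA read by the miR-467a assay can come from 10 hairpin genes and that read by the miR-669a assay from 12. The other members had a single hairpin gene each. Counted in the order of the cluster, Mir467c was the 13th hairpin gene and Mir467b the 25th, while Mir467e and Mir467d stood near the other end, at places 53 and 55. The miR-467a and miR-669a copies lay between and around them, from place 17 to 50 for Mir467a and from 15 to 59 for Mir669a. No Mir297 or Mir466 product and no other Mir467 or Mir669 product was analysed here, so the 6 assays stand for a small share of the cluster.

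The annotation gives the host gene 2 start sites, and the bases around each are shown because a location inside the same host gene is what the 6 members have in common. Both are RefSeq sequences of GRCm38.p6 on the plus strand, read 5′ to 3′, and capitals mark each CG dinucleotide, the base pair step that carries DNA methylation in imprinted genes.
Sfmbt2 start at chr2:10370201-10370500: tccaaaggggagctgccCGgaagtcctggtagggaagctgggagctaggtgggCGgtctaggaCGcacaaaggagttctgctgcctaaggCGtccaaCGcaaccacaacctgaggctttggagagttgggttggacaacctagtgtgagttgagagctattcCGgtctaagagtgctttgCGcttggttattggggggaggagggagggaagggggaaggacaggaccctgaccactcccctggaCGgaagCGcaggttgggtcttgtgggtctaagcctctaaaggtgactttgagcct
Sfmbt2 start at chr2:10372186-10372485: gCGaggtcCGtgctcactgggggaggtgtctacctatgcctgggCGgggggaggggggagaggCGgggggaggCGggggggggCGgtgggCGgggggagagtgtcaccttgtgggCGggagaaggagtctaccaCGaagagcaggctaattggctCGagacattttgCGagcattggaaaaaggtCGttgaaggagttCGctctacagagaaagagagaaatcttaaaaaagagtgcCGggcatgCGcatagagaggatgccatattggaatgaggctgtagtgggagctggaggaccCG
The first window holds 9 CG and is 57.7% G and C, and the second holds 16 CG and is 60.0% G and C. Among 32851 RefSeq promoters of the same length the median was 7 CG, and 45.8% and 33% of them held at least as many CG as the first and the second window. The CG motif reads the same on both strands, and its count describes the letters only. The assays measured mature miRNAs, not these promoters or the host mRNA.

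The files give raw Ct, the cycle of the PCR in which fluorescence crosses a set threshold, so that 1 cycle less stands for about 1 doubling of template. All 144 Ct values of the 6 members lay under 35, between 21.52 and 33.87, whereas 11 of the 5328 values of the whole panel stood at the last cycle, 40. Each assay has its own efficiency, so Ct values of different assays are not compared as abundance. Members differ by few bases, an assay may read a near-identical relative, and the assay names do not give the hairpin arm. These limits hold for every value below.

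Changes are given as log2 differences from baseline on 2 scales: the median-miRNA scale, which sets the median change of 205 miRNAs in each sample to 0, and the U6 scale, which uses the small nuclear RNA marked as control in the files. On the median-miRNA scale, U6 itself was higher than baseline by log2 1.91, 1.12, 0.67, 0.09 and 0.12 at days 1, 3, 4, 7 and 21, and U6-scaled changes are lower by those amounts. In raw Ct the median miRNA itself shifted from baseline by -0.38, -0.71, -0.94, -1.19 and -0.15 cycles at these days. Comparisons of raw Ct with baseline below include this common shift, and overlap with baseline was not counted over the other panel miRNAs. The words rose and fell are kept for miRNAs whose change had the same sign and an adjusted p under 0.05 on both scales (limma, Benjamini-Hochberg over all miRNAs tested, n = 4 values per arm). The 5 comparisons with baseline share the same 4 baseline values. Each limma p-value and SE rests on 1 spread per miRNA, pooled over the 6 arms. A member therefore has the same SE at every day, though the spread within arms was unequal. For miR-467d the SD on the median-miRNA scale was 0.97 at baseline and 0.16 at day 1. The files do not tie values to mice, so the spread among values may be partly technical.

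Requiring both scales separated members that rose strongly within a day of injury and stayed up for a week from members that did not pass on both. miR-467a, miR-467c and miR-467d rose at days 1, 3, 4 and 7, which is 3 of 6 members at each time, and none of the 6 rose at day 21. The largest changes were those of miR-467d and miR-467c, at log2 5.98 ± 0.35 and 5.62 ± 0.25 (SE) at day 1. miR-467b, miR-467e and miR-669a passed at no day on both scales. This separation depends on U6: at day 1 miR-467b and miR-467e were called higher under 9 of 10 scalings tried, all but U6. Their day 1 changes were log2 2.60 and 2.76 on the median-miRNA scale. None of the members fell against baseline at any time.

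miR-467c had Ct 30.99, 31.19, 29.52 and 29.56 at baseline. At day 1 it had 24.20, 24.25, 24.17 and 24.64, and at day 3 it had 25.43, 25.76, 25.12 and 25.71. At day 4 the values were 25.02, 25.79, 25.52 and 25.28, and at day 7 they were 26.41, 26.61, 26.49 and 25.98. The highest of these values from days 1 to 7 was 26.61, against a lowest baseline value of 29.52. By day 21 the values were 29.31, 30.14, 29.30 and 29.78, which overlapped baseline. On the median-miRNA scale the change was log2 5.62, 4.10, 3.97 and 2.75 at days 1, 3, 4 and 7, with an SE of 0.25 and adjusted p between 1.38e-14 and 1.16e-09. Relative to U6 it was 3.71, 2.98, 3.30 and 2.66, with adjusted p between 9.15e-08 and 2.1e-05. The change at day 21 was 0.53 (adjusted p = 0.0568) and 0.41 (adjusted p = 0.53) on the 2 scales.

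miR-467d was the latest to reach threshold of the 6 at baseline, with Ct 32.55, 33.87, 31.22 and 32.40. Its values were 26.41, 25.97, 25.99 and 26.21 at day 1, then 27.63, 27.96, 26.86 and 27.78 at day 3. They were 27.81, 27.66, 28.09 and 27.61 at day 4 and 27.97, 28.52, 28.16 and 28.06 at day 7. The 4 early arms did not overlap baseline, and their spread was smaller than that of the 4 baseline values (SD 0.21 cycles at day 1, against 1.08 at baseline). At day 21 the values 30.55, 31.32, 32.32 and 30.91 overlapped baseline. The change was log2 5.98, 4.25, 3.77 and 3.14 at days 1, 3, 4 and 7 on the median-miRNA scale (SE 0.35), and on the U6 scale it was 4.07, 3.12, 3.10 and 3.05. Adjusted p on the first scale ran from 1.27e-12 to 3.21e-08 and on the U6 scale from 5.55e-08 to 7.48e-06. At day 21 the change was 1.09 (adjusted p = 0.00878) and 0.97 (adjusted p = 0.137) on these scales. The call on the median-miRNA scale was kept in the 8 fits that left out a value. It was lost when limma was fitted on baseline and day 21 only (adjusted p = 0.101). The lack of a call on both scales at day 21 rests on single values. miR-467d was called on both without the third baseline value, and likewise without the third value of day 21.

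miR-467a was the member detected earliest, with Ct 26.46, 26.60, 26.01 and 25.99 at baseline. It had 21.72, 21.59, 21.52 and 21.91 at day 1 and 23.05, 23.47, 22.55 and 23.02 at day 3. At day 4 it had 22.99, 23.02, 23.39 and 22.83, and at day 7 it had 23.17, 23.57, 23.40 and 23.07. At day 21 the values were 25.30, 25.22, 24.90 and 25.19, still all below the lowest baseline value. Of the 6 members, miR-467a was the one with no overlap between baseline and any later arm in raw Ct. How many other panel miRNAs share this was not counted. miR-467a changed by log2 4.20, 2.54, 2.26 and 1.77 at days 1, 3, 4 and 7 on the median-miRNA scale (SE 0.12), with adjusted p between 8.73e-18 and 1.66e-11. Relative to U6 the changes were 2.29, 1.41, 1.59 and 1.68, with adjusted p between 1.42e-05 and 0.00366. At day 21 they were 0.96 (adjusted p = 4.99e-07) and 0.84 (adjusted p = 0.108).

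**Figure D1:**
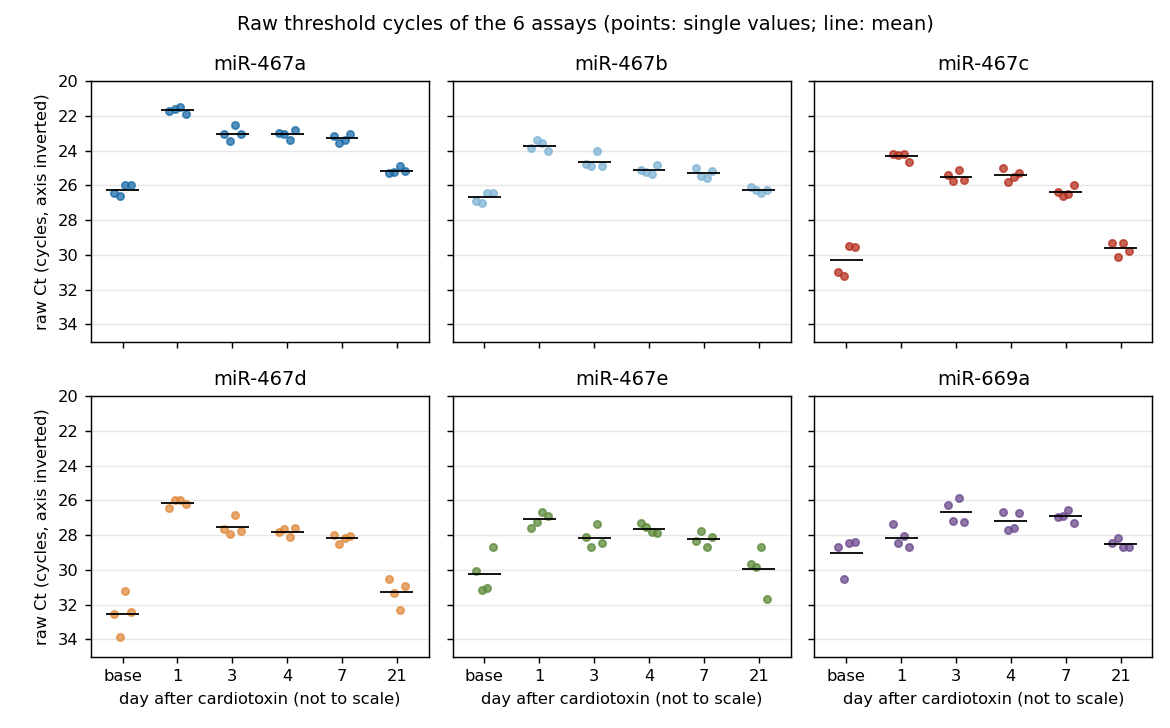
Raw threshold cycles of the 6 assays, in cycles on an inverted axis so that a higher point means more template, at baseline and at days 1, 3, 4, 7 and 21. Points are the 4 values of an arm and lines their mean. miR-467c and miR-467d stand near Ct 30 to 33 at baseline and near 24 to 26 at day 1, and miR-669a has its lowest Ct at day 3.

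miR-467b had Ct 26.92, 26.99, 26.46 and 26.43 at baseline and 23.87, 23.40, 23.58 and 24.03 at day 1. The ranges were 24.02 to 24.91 on day 3, 24.85 to 25.36 on day 4, 25.01 to 25.57 by day 7 and 26.07 to 26.43 by day 21. Raw values of days 1 to 7 lay below baseline, and those of day 21 met it at 26.43. On the median-miRNA scale day 7 overlapped baseline, with log2 0.04 to 0.35 against -0.11 to 0.11, and day 21 did not, at 0.12 to 0.39. The median-miRNA scale gave a change of log2 2.60, 1.35, 0.62, 0.19 and 0.30 from day 1 to day 21 (SE 0.13). Relative to U6 it was 0.69, 0.23, -0.06, 0.10 and 0.18, with adjusted p between 0.154 and 0.917.

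miR-467e had Ct 30.06, 31.16, 31.05 and 28.69 at baseline and 27.59, 27.22, 26.69 and 26.88 at day 1. The ranges were 27.35 to 28.70 on day 3, 27.32 to 27.85 on day 4 and 27.76 to 28.68 by day 7. At day 21 the values were 29.67, 29.84, 28.69 and 31.70, a spread as wide as that of baseline (SD 1.26 cycles, against 1.15). In raw Ct days 1, 4 and 7 lay below all baseline values, and day 3 and day 21 overlapped them. On the median-miRNA scale day 7 overlapped them too, with log2 0.47 to 1.38 against a highest baseline value of 1.28. The change was log2 2.76, 1.37, 1.66, 0.82 and 0.12 relative to the median miRNA (SE 0.47), with adjusted p of 1.77e-05, 0.0118, 0.0028, 0.115 and 0.85. Single baseline values decided this scale's calls at days 3 and 7: without baseline value 3 the day 3 change was 1.06 (adjusted p = 0.0578), and without baseline value 4 the day 7 change was 1.23 (adjusted p = 0.0174). The day 7 change was 0.49 without baseline value 3. Relative to U6 it was 0.85, 0.25, 0.99, 0.73 and -0.005, with adjusted p between 0.119 and 0.993.

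miR-669a followed a course of its own. Its Ct was 28.69, 30.52, 28.45 and 28.38 at baseline and 27.38, 28.44, 28.03 and 28.70 at day 1, and these arms overlapped. The lowest cycles came later, with 26.28, 27.20, 25.86 and 27.25 on day 3. They were 26.67, 27.69, 27.57 and 26.73 on day 4, and 26.97, 26.89, 26.56 and 27.29 by day 7. In raw Ct those 3 arms did not overlap baseline, and day 21, at 28.44, 28.19, 28.67 and 28.69, did. Among these 3 arms, days 4 and 7 overlapped baseline on the median-miRNA scale, with log2 0.39 to 1.33 and 0.48 to 1.36. Baseline reached 0.54 there. On the median-miRNA scale the change was log2 0.49, 1.66, 0.90, 0.89 and 0.36 (SE 0.37), with adjusted p of 0.226, 0.000315, 0.0285, 0.0317 and 0.392. Relative to U6 it was -1.42 at day 1 (adjusted p = 0.0263), and 0.53, 0.23, 0.80 and 0.24 afterwards, with adjusted p between 0.222 and 0.77. One baseline value, Ct 30.52, stood about 2 cycles from the others. Without it the changes on the median-miRNA scale were 0.03, 1.22, 0.42, 0.44 and -0.06 at days 1, 3, 4, 7 and 21, and the pass on that scale alone was lost at days 4 and 7. It was also lost at day 4 without value 1 or value 4 of that day, and at day 7 without value 2 or value 3 of that day.

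**Figure D2:**
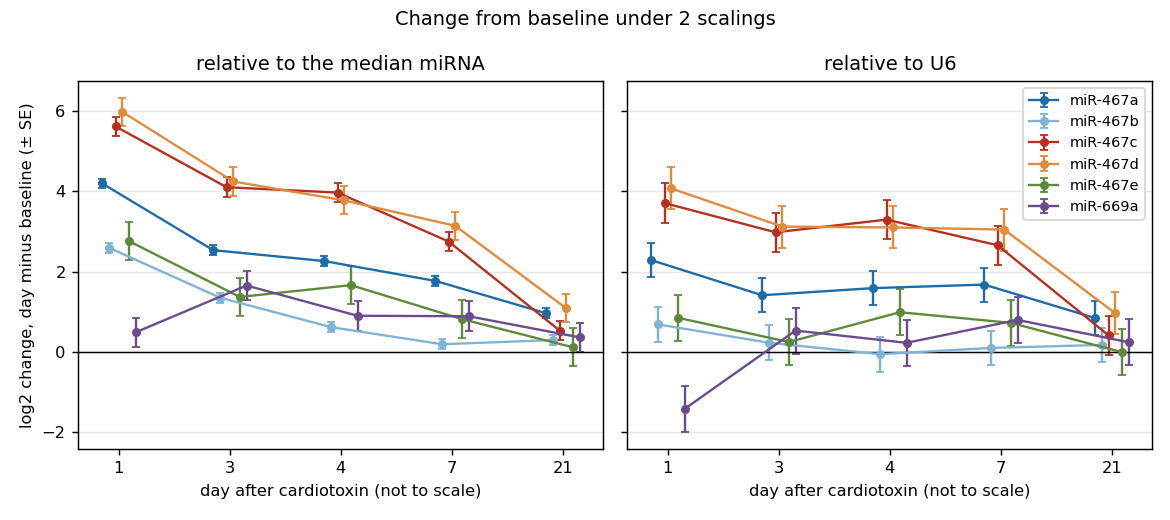
Log2 change of each member at each day minus baseline, on the median-miRNA scale on the left and the U6 scale on the right. Points are estimates of the fit and bars ± 1 SE, with 4 values per arm. miR-467d, miR-467c and miR-467a lie above 0 from day 1 to day 7 in both panels, and miR-669a at day 1 lies at 0.49 on the left and at -1.42 on the right.

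Set against the panel, 19 of 211 tested miRNAs, the members included, rose on both scales at day 1. That number depends on U6: 87 of the 211 were higher on the median-miRNA scale alone and 19 on the U6 scale alone. At day 1, 3 of 6 members rose, against 9.00% of 211 tested miRNAs, and 0 of 6 fell, against 38.9%. The median change of the 6 members was log2 3.48 on the median-miRNA scale and 1.57 on the U6 scale, and over all tested miRNAs it was -0.04 and -1.95. Of all calls at day 1 on both scales, 18.8% were higher, a share that was 51.5% on the median-miRNA scale alone and 12.0% on the U6 scale alone. miR-467d ranked 4th, miR-467c 5th and miR-467a 11th among the 211 changes ordered from the highest, followed by miR-467e at place 21, miR-467b at 25 and miR-669a at 86.

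The later counts stood against larger panel shares on both scales, while the U6 shift became smaller. On the median-miRNA scale alone the panel had 87, 82, 92 and 86 miRNAs higher at days 1, 3, 4 and 7. At day 3 it was 3 of 6 members, against 19.3% of 212 miRNAs, and at day 4 3 of 6, against 25.4% of 213. At day 7 it was 3 of 6, against 31.5% of 213. The share of fallen miRNAs was 41.0%, 41.3% and 35.7% at these days, and 0 of 6 members fell at any of them by limma on both scales. No member was called lower at days 3, 4 or 7 on either scale alone, also at an unadjusted p under 0.05. The ranks of miR-467c were 11, 13 and 33 at days 3, 4 and 7, and those of miR-467d were 10, 16 and 26. miR-467a stood at places 32, 39 and 56.

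By day 21, 22.1% of 213 miRNAs had risen and 19.2% had fallen, and none of the members was called in either direction. At an unadjusted p under 0.05, 4 members were higher on the median-miRNA scale, 0 were higher on the U6 scale, and 0 were lower on either. With adjusted p on the median-miRNA scale alone, the 3 members called higher were miR-467a, miR-467b and miR-467d, against 76 of the 213 miRNAs. The miR-467b call (log2 0.30, adjusted p = 0.0437) was lost in 5 of 8 fits that left out a value, with adjusted p up to 0.101, and with a trended variance (adjusted p = 0.0613). Counts on that scale alone were 5, 6, 6 and 4 of 6 at days 1, 3, 4 and 7. The panel had 87 of 211, 82 of 212, 92 of 213 and 86 of 213 miRNAs higher there. On the U6 scale alone 3 of 6 members were higher at each of these days, against 19, 41, 54 and 67 miRNAs. On it 1 member, miR-669a, was lower at day 1, as were 139 of the 211 miRNAs.

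**Figure D3:**
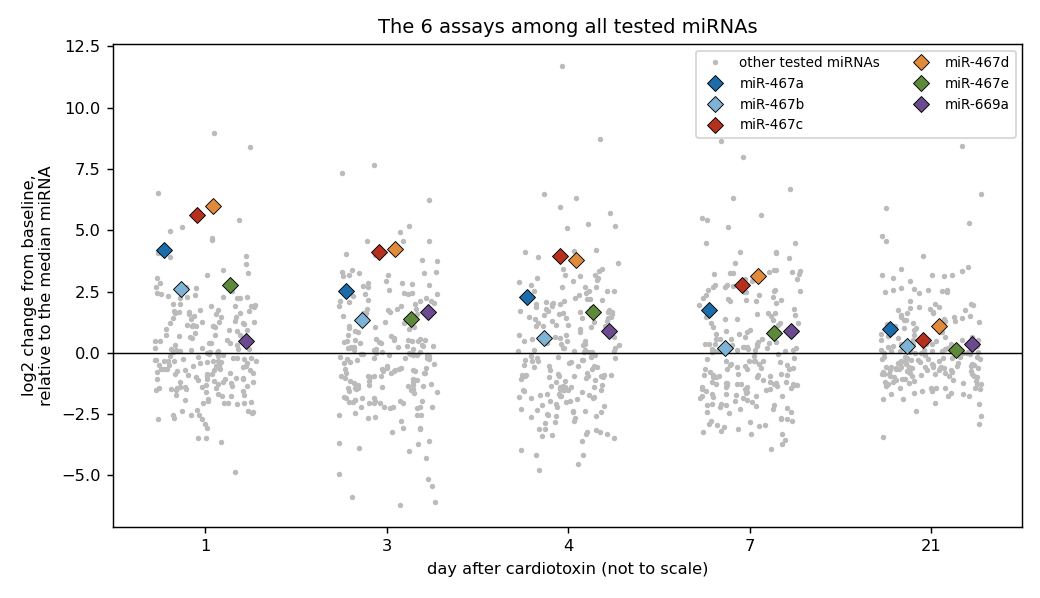
Log2 change from baseline relative to the median miRNA of every tested miRNA at each day, with the 6 members as diamonds and the other miRNAs as grey points spread sideways for sight. At day 1 miR-467d at 5.98 and miR-467c at 5.62 are among the highest points, and at day 21 all 6 members lie between 0.12 and 1.09.

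Differences between successive times come from the same fit, so the baseline values enter their spread and the median-miRNA scaling but not the 2 means compared. From day 1 to day 3 miR-669a rose, with log2 1.17 ± 0.37 on the median-miRNA scale (adjusted p = 0.00689) and 1.95 on the U6 scale (adjusted p = 0.00589). It was the 1 member of 6 to do so, against 31.0% of 213 miRNAs. The 5 miR-467 members had negative differences in the same step, between -1.74 and -1.24 relative to the median miRNA (adjusted p at most 0.011). On that scale alone 103 of the 213 miRNAs were lower. Relative to U6 the 5 differences were between -0.95 and -0.46 with adjusted p of at least 0.0917, so 0 of 6 fell on both scales, against 13.1%. At an unadjusted p under 0.05 the U6 scale had 1 member lower, miR-467a, which was called lower on both scales without the third value of day 1 or without the first value of day 3.

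None of the 6 members was called on both scales in the middle of the course. In the step from day 3 to day 4, 21.3% of 216 miRNAs were higher and 1.85% lower, and in the step from day 4 to day 7, 16.1% of 217 were higher and 0.922% lower. These panel shares are set against 0 of 6 members in each direction by limma. Relative to the median miRNA alone, miR-467b was lower in the first step (log2 -0.73) and miR-467a, miR-467b and miR-467c in the next (-0.49, -0.43 and -1.22). Over the panel 61 of 216 and 56 of 217 miRNAs were lower in these steps on that scale. At an unadjusted p under 0.05 the member counts were 2 and 3 lower, and relative to U6 they were 0 in both steps and both directions.

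Between day 7 and day 21 miR-467c and miR-467d fell. The change of miR-467c was log2 -2.22 ± 0.25 on the median-miRNA scale (adjusted p = 1.54e-07) and -2.25 on the U6 scale (adjusted p = 0.000905). That of miR-467d was -2.05 ± 0.35 (adjusted p = 3.1e-05) and -2.08 (adjusted p = 0.00329). These 2 of 6 members stood against 14.4% of 216 miRNAs lower in this step, and 0 of 6 were higher, against 19.4%, with 0 higher also at an unadjusted p under 0.05 on each scale. miR-467a had -0.81 and -0.84 on the 2 scales, with adjusted p of 8.43e-06 and 0.12. In the step to day 21 the U6 shift was small, and both scales gave nearly the same differences.

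Where 2 members are read in the same RNA, the difference between them needs no control RNA. For each pair the difference of same-numbered values was compared between a day and baseline with an exact two-sided permutation test, over 15 pairs at 5 times. Same-numbered values of different assays moved together within arms: among 163 miRNAs with mean Ct under 26 the median correlation of within-arm deviations was 0.350, and 83.6% of pairs were positive. Among the members it ran from -0.07 for miR-467d with miR-467e and 0.26 for miR-467b with miR-467e to 0.78 for miR-467a with miR-467b. Matching by number is thus least borne out for miR-467e, and it affects the spread of a difference but not its mean. With 4 values against 4 the smallest p is 0.0286, which became 0.0595 after Benjamini-Hochberg adjustment over the 75 tests. The adjusted value of this smallest p depends on how many tests reach it, so no pair could pass by its own gap alone. None of the 75 passed, and 36 reached that smallest p, each with groups that did not overlap: 11, 9, 8, 7 and 1 at days 1, 3, 4, 7 and 21. Pairs of other panel miRNAs were not counted in this way, so these counts cannot be called particular to the cluster. By limma on the median-miRNA scale alone, 87 of the 211 miRNAs tested at day 1 were higher and 82 lower.

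The gap between miR-467a and miR-467b did not overlap baseline at any day, though it passed at none after adjustment. miR-467a crossed threshold earlier by 2.15, 1.81, 2.06 and 2.12 cycles at day 1, against 0.46, 0.39, 0.45 and 0.44 cycles at baseline, a gap larger by 1.60 (exact p = 0.0286, adjusted 0.0595). The gap was larger than at baseline by 1.18, 1.65, 1.58 and 0.67 at days 3, 4, 7 and 21, and this was the 1 pair without overlap at day 21. The day 21 gaps were 0.77, 1.03, 1.53 and 1.08 cycles.

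The day 1 gaps from miR-467a to miR-467c and miR-467d did not overlap those of baseline, though neither difference passed after adjustment. The gap was 2.63 ± 0.11 cycles to miR-467c at day 1, against 4.05 ± 0.59 at baseline (SD, n = 4 each), a difference of -1.42 (exact p = 0.0286, adjusted 0.0595). To miR-467d it was 4.46 ± 0.17 cycles at day 1, against 6.25 ± 0.85 at baseline, a difference of -1.79 with the same exact and adjusted p. The gaps at day 21 were 4.48 ± 0.38 to miR-467c and 6.12 ± 0.93 to miR-467d, and both overlapped baseline.

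miR-467c and miR-467d kept a similar distance from each other. The Ct of miR-467d was later by 1.83 ± 0.27 cycles at day 1, against 2.20 ± 0.66 at baseline, a difference of -0.37 (exact p = 0.4). At days 3, 4, 7 and 21 the difference from baseline was -0.14, 0.20, -0.39 and -0.55, with exact p between 0.257 and 0.743. A p above the threshold does not show that the pair changed equally, and leaving out single values moved the day 1 difference between -0.58 and -0.15. Their hairpin genes are not neighbours in the cluster, at places 13 and 55. miR-467e, at place 53, is nearer to miR-467d. The miR-467d minus miR-467e difference in minus Ct was 1.18, 1.25, 0.70 and 0.67 cycles at day 1, against -2.49, -2.71, -0.17 and -3.71 at baseline, a change of 3.22 (exact p = 0.0286, adjusted 0.0595).

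Of the 75 differences, the largest were those of miR-467d and miR-467c from miR-669a at day 1. The miR-467d minus miR-669a difference was 0.97, 2.47, 2.04 and 2.49 cycles at day 1, against -3.86, -3.35, -2.77 and -4.02 at baseline, a change of 5.49. The miR-467c minus miR-669a difference changed by 5.13 (exact p = 0.0286 and adjusted p = 0.0595 for both). At day 3 the changes were 2.59 and 2.45, again without overlap. The miR-467b minus miR-669a difference overlapped baseline at every day, with changes of 2.11, -0.30 and -0.28 at days 1, 3 and 4. Without the second baseline value of miR-669a the exact test cannot pass, since the smallest p of 4 values against 3 is 0.0571. Over all fits that left out a value, the day 1 changes stayed between 5.32 and 5.83 for miR-467d and between 4.80 and 5.34 for miR-467c.

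**Figure D4:**
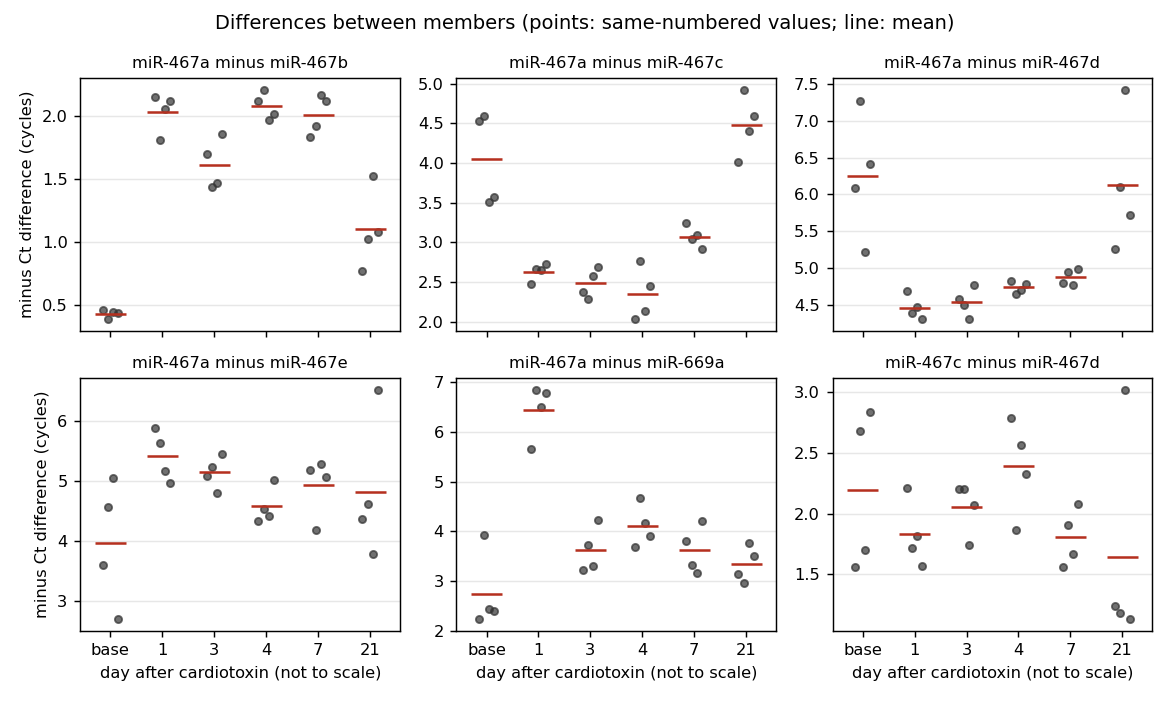
Differences between members in minus Ct (cycles) for 6 pairs, at baseline and at each day, with a vertical scale of its own in each panel. Points are differences of same-numbered values and lines their mean over 4. The miR-467a minus miR-467b gap is 0.44 cycles at baseline and 2.04 at day 1, the miR-467a minus miR-669a gap is largest at day 1, and the miR-467c minus miR-467d gap overlaps baseline at every day.

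Across the 24 values, relative to the median miRNA, miR-467c and miR-467d followed each other with Pearson r = 0.97. miR-467a followed miR-467d with 0.96, miR-467c with 0.95 and miR-467b with 0.91. The correlations of miR-669a with the miR-467 members lay between 0.21 and 0.47. These are descriptions over values that share 6 arms, their RNAs and a scaling factor, and no p is attached to them.

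Outside the cluster, the miRNAs whose pattern was most like that of a member were sought among 199 others detected in every sample. For miR-467a, miR-467c, miR-467d and miR-467e the first was miR-142-5p, an arm of a miRNA made in blood-forming cells, with r = 0.97, 0.98, 0.96 and 0.81. For miR-467b it was miR-223, a neutrophil and monocyte miRNA, with r = 0.97. The closest to miR-669a was miR-21, which is raised in many injured tissues, with r = 0.71, followed by miR-182 and miR-342-5p at 0.69 each. Other close miRNAs were miR-142-3p for 4 members, miR-652 for miR-467a, miR-682 and miR-744 for miR-467b, miR-141 for miR-467c and miR-467d, and miR-200b for miR-467e.

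Some leukocyte markers moved with the result and others did not. miR-142-5p rose by log2 5.12, 3.99, 3.13 and 2.11 relative to the median miRNA at days 1, 3, 4 and 7, beside 5.62, 4.10, 3.97 and 2.75 for miR-467c, and it had 0.79 at day 21, beside 0.53. miR-142-3p rose at the same days, with 4.96, 4.03, 3.19 and 2.19. miR-223 had 6.53, 3.74, 2.15, 0.75 and -0.001 over the 5 days, beside 2.60, 1.35, 0.62, 0.19 and 0.30 for miR-467b. miR-146a had 2.26, 0.56, 0.33, 0.91 and 0.71, and passed at no day on both scales. In the other direction, the lymphocyte-enriched miR-150 fell at days 3, 4 and 7, with -1.32, -1.84 and -2.10, and so did miR-155, with -1.37, -1.41 and -1.21. miR-146b fell at days 4 and 7, with -0.93 and -1.28.

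All 8 listed myeloid and lymphoid miRNAs were on the panel, and 7 were tested. Of the 7, 3, 3, 3, 2 and 0 rose and 0, 2, 3, 3 and 0 fell at days 1, 3, 4, 7 and 21. miR-147 was not tested against baseline, and had Ct 33.74 to 36.96 at baseline and 25.57 to 26.21 at day 1. The summed level of the 8, added up from 2 to the power of minus Ct, lay between log2 3.58 and 3.80 above the baseline mean at day 1, against -0.30 to 0.27 in single baseline samples. The sum was 1.20 to 1.44 on day 3, 0.19 to 0.33 on day 4, -0.53 to -0.11 by day 7 and -0.35 to -0.09 by day 21. Such a sum weights each assay by its raw Ct, so the assay of lowest Ct counts most, and it is an index, not an abundance. At baseline that assay was miR-150, with mean Ct 16.45, against 18.73 for miR-223. At day 1 it was miR-223, with mean Ct 11.82, against 15.65 for miR-150.

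Myofibre miRNAs were lower after injury. Uninjured muscle had early cycles for them, with miR-1 between Ct 12.48 and 13.14 and miR-133a between 9.19 and 9.59. Of 6 listed, 5 were on the panel, and all 5 fell at day 1, with a summed level of log2 -4.18 to -2.30, against -0.18 to 0.23 at baseline. The sum was lowest at day 3, at -6.59 to -4.25, and was still -1.51 to -1.10 at day 21. miR-133a, the assay of lowest Ct in the list, counts most in it. At day 21, 4 of the 5 fell, and miR-486 had log2 0.20 relative to the median miRNA.

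The epithelial list holds miR-141 and miR-200b, which were among the miRNAs most like members. At days 1, 3, 4, 7 and 21, 4, 4, 3, 3 and 0 of its 5 tested miRNAs rose and 1 of 5 fell at each. The miRNA that fell was miR-203 from day 1 to day 7, with -0.50 at day 1, and miR-200c at day 21, with -1.24. The sums were 0.48 to 0.78 at day 1, against -0.16 to 0.33 at baseline. They were -0.67 to -0.33, -1.20 to -0.36, -0.93 to -0.66 and -0.26 to 0.40 at days 3, 4, 7 and 21. Of the other lists, the red cell miR-451 fell at days 4 and 7, and the 2 endothelial miRNAs fell at days 3, 4 and 7. Of 5 smooth muscle and fibroblast miRNAs, 0, 0, 0, 2 and 0 rose and 3, 2, 2, 2 and 1 fell at days 1, 3, 4, 7 and 21. The part of these cell populations in the changes of the cluster was not tested.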

How the data were processed

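TaqMan assays were run for 40 cycles on total RNA with an integrity number over 9, per the labels' protocols. The files hold raw Ct as the authors deposited them, entered here as a score because Ct is neither a count nor an expression unit. They hold 222 assays, of which 5 are control RNAs, with 4 values per assay and arm. The baseline column was the same in the 5 files and was used once. Any normalization by the authors, the Ct threshold and the build behind the assays: not given in the sources used here. Days 2 and 5 of the time course were not analysed here.

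A miRNA was tested where at least 3 of 4 values in both arms were under Ct 35, and values at 40 were left out of the fit. Minus Ct was scaled by the median miRNA and by U6, and each miRNA was fitted once over the 6 arms in limma 3.58.1 (R 4.3.3; lmFit, then eBayes). P-values are two-sided and adjusted by Benjamini-Hochberg over all miRNAs tested in a comparison. The fit was tested on simulated data. The named miRNAs are the members, the 3 most correlated others for each, the cell type markers and the control RNAs. miR-206 and miR-144, from the marker lists, are not among the assays analysed. The members and lists were chosen with earlier results of these data known. Depth has no counterpart in Ct data, and the 4 values per arm limit the precision.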

Additional observations from a re-analysis of the deposited data

Results flagged for a closer look

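In 36 groups of 4 values (6 members in 6 arms, relative to the median miRNA, with the baseline mean at 0), 4 held a value whose gap to the nearest other exceeded Dixon's 95% limit. Chance alone flags about 1 in 20 groups. miR-669a had a baseline value of log2 -1.33, with the other 3 between 0.36 and 0.54. miR-467b had a value of 1.66 at day 3, with the others between 1.24 and 1.28, and 0.80 at day 4, with the others between 0.54 and 0.58. miR-467d had a value of 2.89 at day 7, with the others between 3.20 and 3.26.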

How the results depend on the processing

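Precision is limited by 4 values per arm and by the late Ct of miR-467d, which at a Ct limit of 32 was not detected at baseline and could not be tested against it. The calls of miR-467a, miR-467c and miR-467d as higher at days 1, 3, 4 and 7 were made under each of the 10 single scalings tried. These 10 include the median miRNA and U6, which define the calls. The fits that left out a value of either arm, 8 for each comparison, kept the calls. Of 180 counts under the 10 alternatives that kept both scalings, 179 stayed within 1.5 times the main count, but many of these set 0 against 0. The exception was a required 4-fold change, with which 0 members were higher at day 3 against day 1. A count of 2 against 3 is within this limit. It was 2 members higher at days 1, 3, 4 and 7 with the Ct limit of 32, and at days 3, 4 and 7 with the 4-fold change. With single scalings the counts moved, and the cause was not tested.

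Numbers in brackets are the calls of the same direction over all 211 to 213 miRNAs tested. Members called higher at day 1 were 5 by the median miRNA (87), snoRNA135 (39), snoRNA202 (89), U87 (66), the mean of all controls (80) and the median Ct (83). They were also 5 by quantile scaling (70) and raw Ct (96), and 6 by Y1 (188). At day 3 they were 6 by the median miRNA (82), snoRNA202 (93), U87 (67), Y1 (124), the control mean (70), the median Ct (81) and raw Ct (112). At day 4 they were 6 by the median miRNA (92), snoRNA202 (106), Y1 (92) and raw Ct (122), and 5 by U87 (86) and the median Ct (81). At day 7 they were 6 by snoRNA202 (110), Y1 (116) and raw Ct (123). For day 21 the number was 3 by the median miRNA (76) and snoRNA202 (74), and 2 by the control mean (63) and raw Ct (77). It was 1 by U87 (54) and the median Ct (55), and 6 by Y1 (125). Members called lower were 1 by U6 at day 1 (139) and 1 each by snoRNA135 at days 3, 4, 7 and 21 (150, 130, 134 and 138). By quantile scaling they were 1, 2 and 1 at days 4, 7 and 21 (87, 96 and 78).

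Brackets again hold the panel calls, here over 213 to 217 miRNAs tested. For day 3 against day 1, 0 members were higher by snoRNA135 (38) and Y1 (13). In that step 5 were lower by every scaling other than U6 and raw Ct (75 to 165). By U6 0 were lower (28), and by raw Ct 4 (78). For day 4 against day 3, 1 was lower by the median miRNA (61), snoRNA135 (19), snoRNA202 (51) and the control mean (39). It was 3 by the median Ct (103) and 5 by Y1 (144) and quantile scaling (79). For day 7 against day 4, 3 were lower by the median miRNA (56) and the median Ct (60), and 4 by quantile scaling (60). It was 1 by snoRNA135 (22), snoRNA202 (32), U87 (17), the control mean (14) and raw Ct (31). For day 21 against day 7, 6 were lower by snoRNA202 (114) and raw Ct (143) and 4 by U87 (76), and 1 was higher by quantile scaling (71). Over all miRNAs the share of calls that were higher ran from 12.0% to 98.9% at day 1 with the scaling.

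Changes that turned negative were as follows, in log2. With U6 they were -1.42 (miR-669a, day 1), -0.055 (miR-467b, day 4) and -0.005 (miR-467e, day 21). With snoRNA135 miR-669a had -0.87, -0.12, -0.63, -0.28 and -0.78 over the 5 days and miR-467b -0.42, -0.91, -0.98 and -0.84 from day 3. With the same control miR-467e had -0.41, -0.36 and -1.02 at days 3, 7 and 21, and miR-467a, miR-467c and miR-467d had -0.18, -0.61 and -0.053 at day 21. With U87 miR-467e had -0.13 at day 21. With the median Ct miR-467b had -0.19 and -0.11 at days 7 and 21, and miR-467e and miR-669a -0.29 and -0.045 at day 21. With quantile scaling miR-467b had -0.79, -1.22 and -0.65 at days 4, 7 and 21, miR-467e -0.15, -1.12 and -0.30, and miR-669a -0.61, -0.53 and -0.21, with -0.51 at day 1. At day 21 it gave -0.074 for miR-467a and -0.20 for miR-467d.

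Leaving out a value gave 0 to 1 members higher at day 21, 0 to 1 lower at day 3 against day 1, and 3 to 4 higher at day 1 and at day 4. The added calls at days 1 and 4 were miR-467b without the third value of day 1 and miR-467e without the fourth baseline value. On the median-miRNA scale alone, miR-467c at day 21 ran from 0.32 to 0.77, with its call changing in 3 of 8 fits. At day 21 the change of miR-467e ran from -0.31 to 0.68 and that of miR-669a from -0.064 to 0.54. No paired analysis was possible because the labels give no replicate numbers that tie values across arms. No member value stood at 40, so a limit for such values changed no pair difference.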
